A study of Mus musculus with 2 samples.

Results

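The genes described here are 7 members of the system by which leukocytes attach to vessel walls: Vcam1, Icam1, Icam2 and Madcam1, which encode integrin ligands of the vessel wall, Selp and Sele, which encode P- and E-selectin, and Selplg, the P-selectin ligand of leukocytes. They were chosen by name among 22811 genes compared, with every non-control probe counted. Under the arrays' own gene names 6 of the 7 were found, with 10 probes. Selplg is listed under its older symbol Selpl and was recognised through its accession, which brought the number to 12 probes.

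Leukocytes leave the blood in steps. Selectins on endothelium and platelets catch passing cells through sugar-bearing ligands, of which P-selectin glycoprotein ligand is the main one for P-selectin, and the cells roll. Leukocyte integrins then bind immunoglobulin-type molecules on the vessel wall, and the cells stop and cross. VCAM-1 and ICAM-1 are induced by inflammatory cytokines and are known from atherosclerotic plaques, where endothelium and also smooth muscle can carry them, while ICAM-2 is largely a constitutive molecule of endothelium, platelets and leukocytes.

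The study set an atherosclerosis-prone stretch of aorta beside a resistant one. All RNA came from apoE-/- mice (no apolipoprotein E, a standard model of atherosclerosis), aged 16 weeks, 3 males and 3 females, with no further treatment in the labels. The arch pool held root, arch and the first 2 mm of thoracic aorta, the thoracic pool the 6 mm that follow, and vessels were first perfused with the detergent Triton X-100 to strip endothelium. RNA of the 6 mice was pooled by segment, so each segment is 1 sample. Array 1 had arch RNA in green (Cy3) and thoracic RNA in red (Cy5), and array 2 had the dyes exchanged. As the arrays repeat 1 measurement, ± below is the SD between them (technical, n = 2 arrays), the spread between mice is unknown and no p-value can be given.

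Of the 41534 gene spots, 76.5% to 82.6% were well above background, depending on pool and array. Over the genes compared, the SD of the log2 ratio between arrays had a median of 0.06 and a 95th percentile of 0.18. The number of arrays limits the precision. All 8 smooth muscle markers examined, such as Myh11 and Cnn1, were well above background in both pools. So were all 14 endothelial markers, 10 macrophage markers and 11 lymphocyte markers, as were 95.5% of all genes compared.

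Vcam1 was the member with the largest difference, higher in the arch pool by 1.95-fold on its brightest probe. Icam2 was higher in the arch by 1.39-fold and Selplg by 1.18-fold. Icam1, Madcam1 and Selp had log2 ratios within 0.1 of 0, as did 60.7% of all genes compared, and Sele gave no signal well above background in either pool. A gene was called when its mean ratio reached 2-fold and both arrays, taken singly, showed 1.5-fold or more on that side. By this rule 0 of the 6 members that could be compared were called, against 0.473% of all genes called higher in the arch and 0.145% called higher in the thoracic pool. With the mean lowered to 1.5-fold, Vcam1 alone was called, where the shares of all genes were 1.2% and 0.386%. Pools of tissue cannot tell fewer cells of a type from less RNA per cell, which holds for every difference below.

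Vcam1 was read by 3 probes. On probe A_51_P210956 the spot signal, in scanner units before background correction, was 1138 for the arch pool and 708 for the thoracic pool on array 1, and 1358 and 593 on array 2. The arch signals lay above both thoracic signals in either dye, without overlap. The log2 ratio of arch over thoracic was 1.03 on array 1 and 0.91 on array 2, with a mean of 0.97 ± 0.08. That placed Vcam1 at position 120 when the 22811 genes were ordered from the highest ratio down. It lay just under the limit of 2-fold. It passed with an offset of 0 in the background correction (1.02), in the scanner's deposited ratios (1.03) and on array 1 alone (1.03), and stood at 0.91 on array 2 alone.

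The other Vcam1 probes gave smaller ratios. On A_52_P520495, designed to the same RefSeq transcript, the signals were 563 for the arch and 471 for the thoracic pool on array 1, and 718 and 411 on array 2. The arch was the higher pool on each array and in each dye, with a log2 ratio of 0.54 ± 0.04, or 1.45-fold. The difference of the ratios of the 2 probes exceeded the spread between arrays. The third probe, A_52_P462332, was designed to a cDNA clone from neonatal kidney. Its signals of 82.0 to 100.5 lay next to the means of the negative control spots (77.0 to 97.1), and 3 of its 4 signals were not well above background, so its log2 ratio of 0.02 ± 0.05 says nothing of Vcam1. With the median over the probes that could be used, Vcam1 stood at 0.75.

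**Figure D1:**
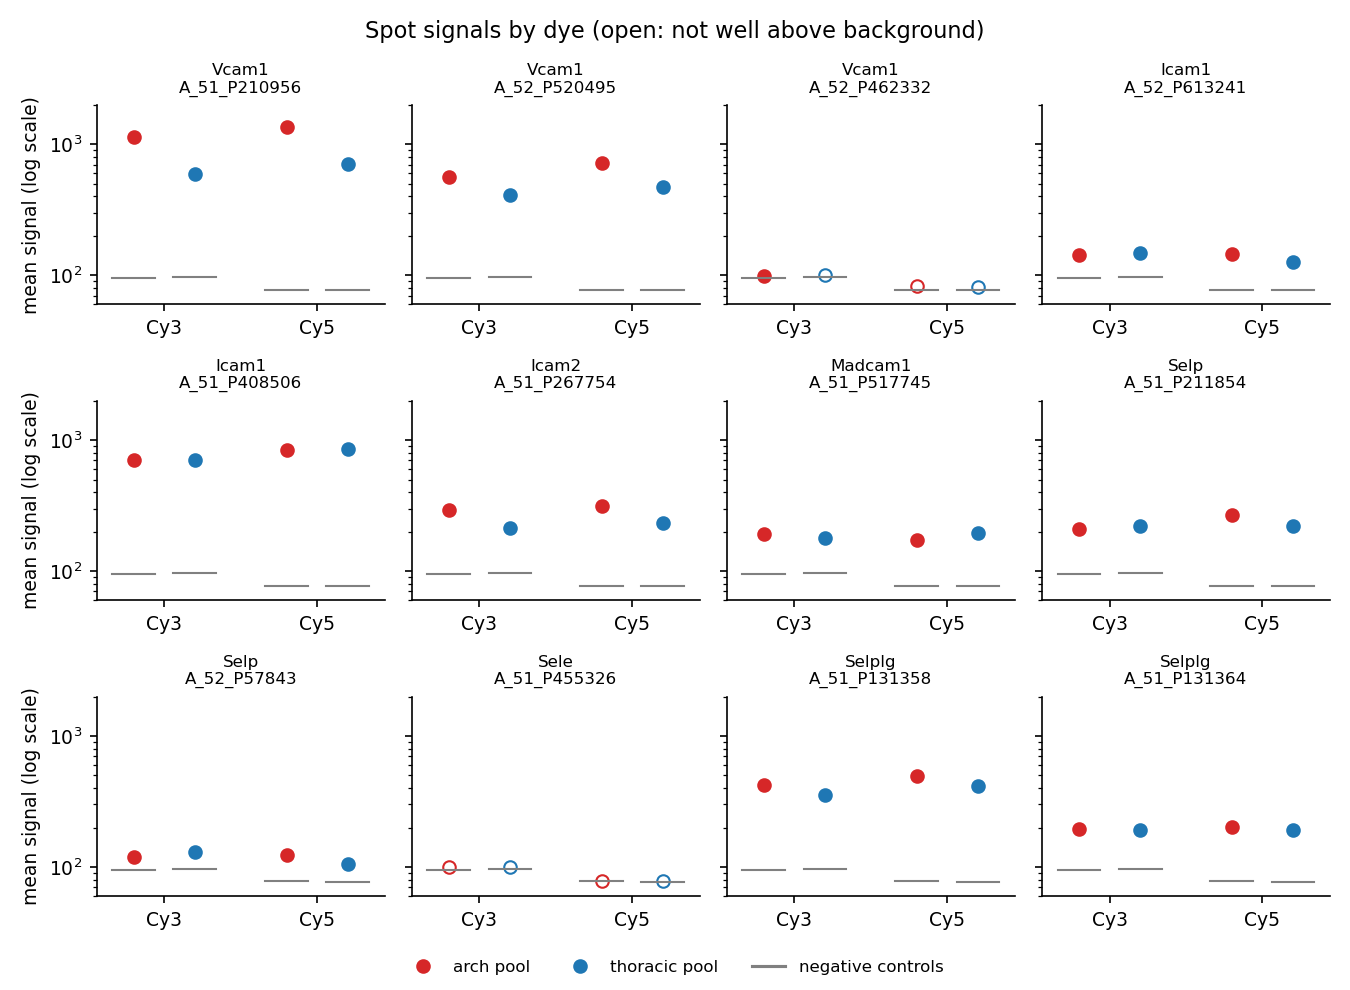
Mean spot signal (log axis, scanner units) of each of the 12 probes, one panel per probe, by dye and pool, with array 1 giving arch in Cy3 and thoracic in Cy5 and array 2 the reverse; grey lines are the means of the negative control spots of the same channel and open circles are signals not well above background. The arch pool is above the thoracic pool in both dyes for the first 2 Vcam1 probes, for Icam2 and for both Selplg probes. For the second Selplg probe the gap is small (194 against 191 in Cy3 and 203 against 192 in Cy5). Sele lies on the negative controls. Levels should not be compared between panels, since probes differ in binding.

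Icam2 encodes a ligand of the leukocyte integrin LFA-1. Its only probe gave 294 in the arch and 233 in the thoracic pool on array 1, and 314 and 213 on array 2. The arch values did not overlap the thoracic values. The log2 ratio was 0.51 on array 1 and 0.45 on array 2, with a mean of 0.48 ± 0.04, at position 501 of the 22811 genes. Among the 2281 genes of closest signal (1 of 10 equal classes by signal) the 5th and 95th percentiles were -0.25 and 0.33. Without an offset the ratio was 0.61 and in the deposited ratios 0.63, so Icam2 stayed under 2-fold in each setting.

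Icam1, another ligand of LFA-1 and of the integrin Mac-1, gave pools that overlapped. Its brighter probe, A_51_P408506, gave 703 in the arch and 857 in the thoracic pool on array 1, and 834 and 708 on array 2. The red signal was the higher one on each array, whichever pool it held. After normalization the log2 ratio was -0.00 on array 1 and -0.08 on array 2 (mean -0.04 ± 0.05). The second probe, A_52_P613241, gave signals between 127 and 148 and a log2 ratio of 0.06 ± 0.10. Both probes of Icam1 were well above background in each channel, so the gene was measured in both segments and its difference lay within the spread between arrays.

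Madcam1, known as the addressin of gut endothelium that binds the integrin alpha4beta7, gave signals of 193 and 196 for arch and thoracic pool on array 1 and 174 and 178 on array 2. The pools overlapped, and the log2 ratio was -0.02 ± 0.10, of opposite sign on the arrays (0.05 and -0.09).

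Selp, the selectin stored in platelets and in the Weibel-Palade bodies of endothelium, was read by 2 probes. A_51_P211854 gave 211 in the arch and 221 in the thoracic pool on array 1, and 266 and 222 on array 2, with a log2 ratio of 0.06 ± 0.10. The ratio was -0.01 on array 1 and 0.13 on array 2, so the arrays differed in sign. The second probe, A_52_P57843, gave signals of 105 to 130 and a log2 ratio of 0.04 ± 0.04.

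Sele, the selectin made by activated endothelium, could not be compared. Its single probe gave 99.2 for the arch and 78.4 for the thoracic pool on array 1, and 77.7 and 99.2 on array 2. Each value follows the dye and not the segment: the green signals equal each other, and the negative control spots of these channels averaged 94.8, 77.0, 77.6 and 97.1 in the same order. None of the 4 signals was well above background, so no fold is given and a low level of Sele was not detectable on these arrays.

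Selplg differed little. Probe A_51_P131358 gave 421 in the arch and 418 in the thoracic pool on array 1, and 494 and 355 on array 2. The raw signals were nearly equal on array 1, where the arch was in green, and the arch was higher in each dye when the arrays are set side by side. Normalization, which removes the excess of red over green at this signal, gave log2 ratios of 0.23 and 0.24 (mean 0.24 ± 0.01, position 1732). The 95th percentile of the 2281 genes in its own signal class was 0.37, above this value. The second probe, A_51_P131364, for the same transcript, gave 0.02 ± 0.03, and the median over both probes was 0.13, so the difference rests on 1 probe.

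**Figure D2:**
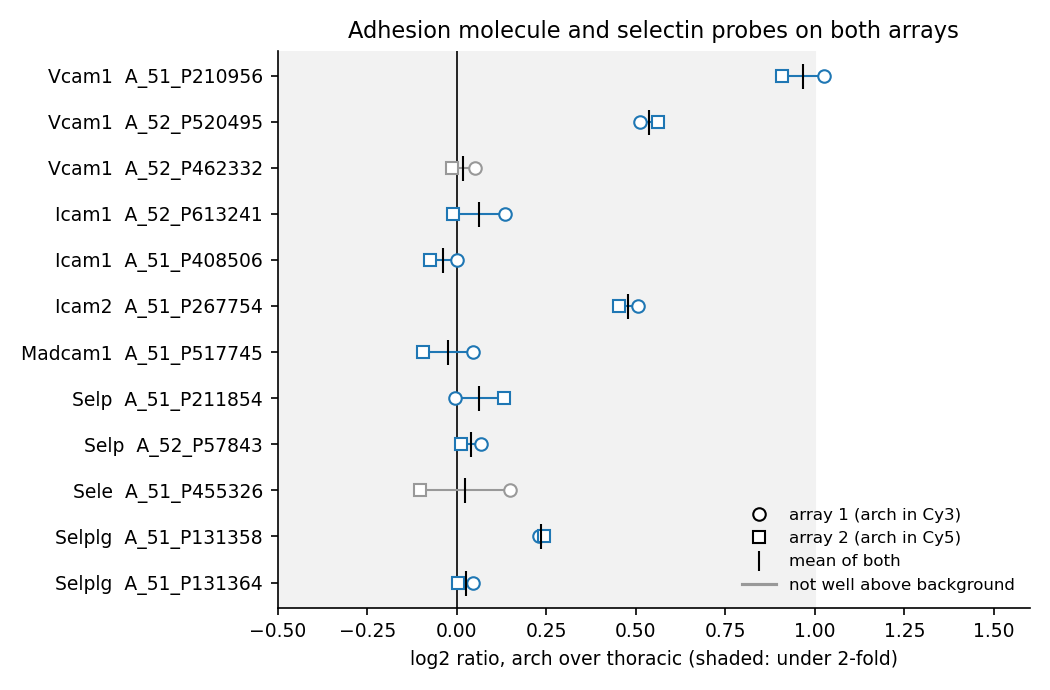
Log2 ratio of arch over thoracic (x axis) for each of the 12 probes (rows), with array 1 as circles, array 2 as squares and their mean as a bar; the shaded band covers differences under 2-fold and grey rows were not well above background. The first Vcam1 probe lies at 0.97, the second at 0.54 and Icam2 at 0.48, while the Icam1, Madcam1 and Selp probes lie between -0.04 and 0.06.

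Set in order of their ratios, the compared members ran Vcam1, Icam2, Selplg, Selp, Madcam1 and Icam1. The gaps between Vcam1 and Icam2 (0.49), Icam2 and Selplg (0.24) and Selplg and Selp (0.17) exceeded the summed SDs of the neighbours, and those between Selp and Madcam1 (0.09) and Madcam1 and Icam1 (0.01) did not. The order rests on the brightest probe of each gene, and the SDs do not cover differences between probes. The second Selplg probe, at 0.02, lay below Selp at 0.06. The second Vcam1 probe, at 0.54, lay near Icam2 at 0.48. The order refers to differences between segments, not to levels. The median ratio of the 6 members was 0.15, against -0.01 over all genes compared, and 4 of the 6 lay above 0, where 47.3% of all genes did.

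**Figure D3:**
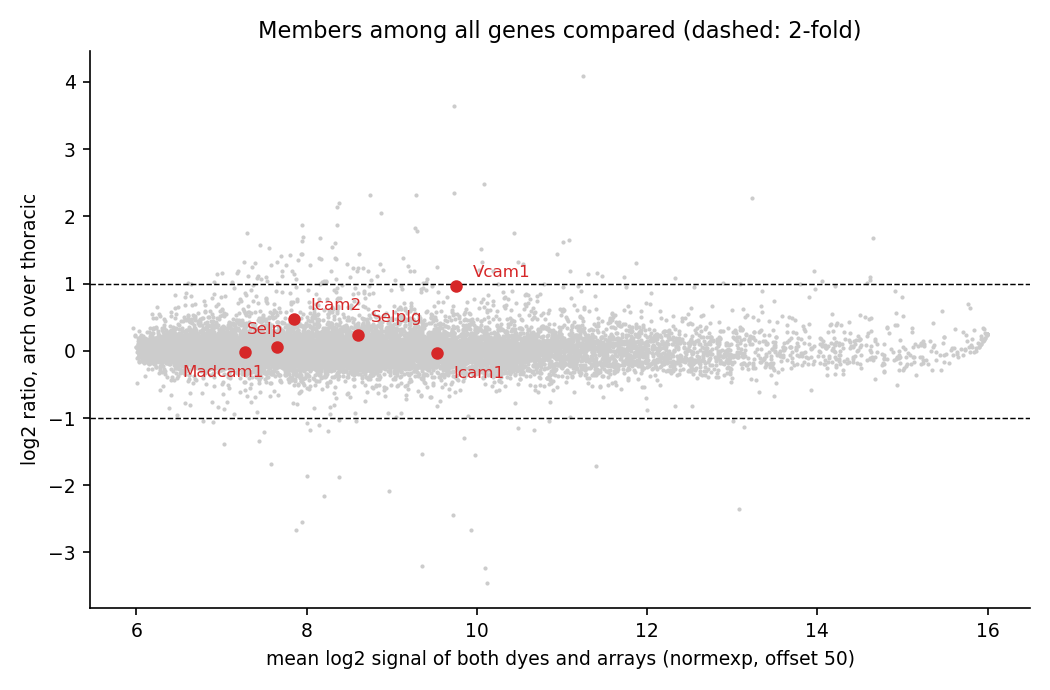
Log2 ratio of arch over thoracic (y axis) against the mean log2 signal of the probe (x axis) for the 22811 genes compared (grey) and the 6 members that could be compared (red); dashed lines mark 2-fold. Vcam1 lies just under the upper line, at 0.97, Icam2 at 0.48 lies at the upper edge of the cloud, and Icam1, Madcam1 and Selp lie inside it.

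**Figure D4:**
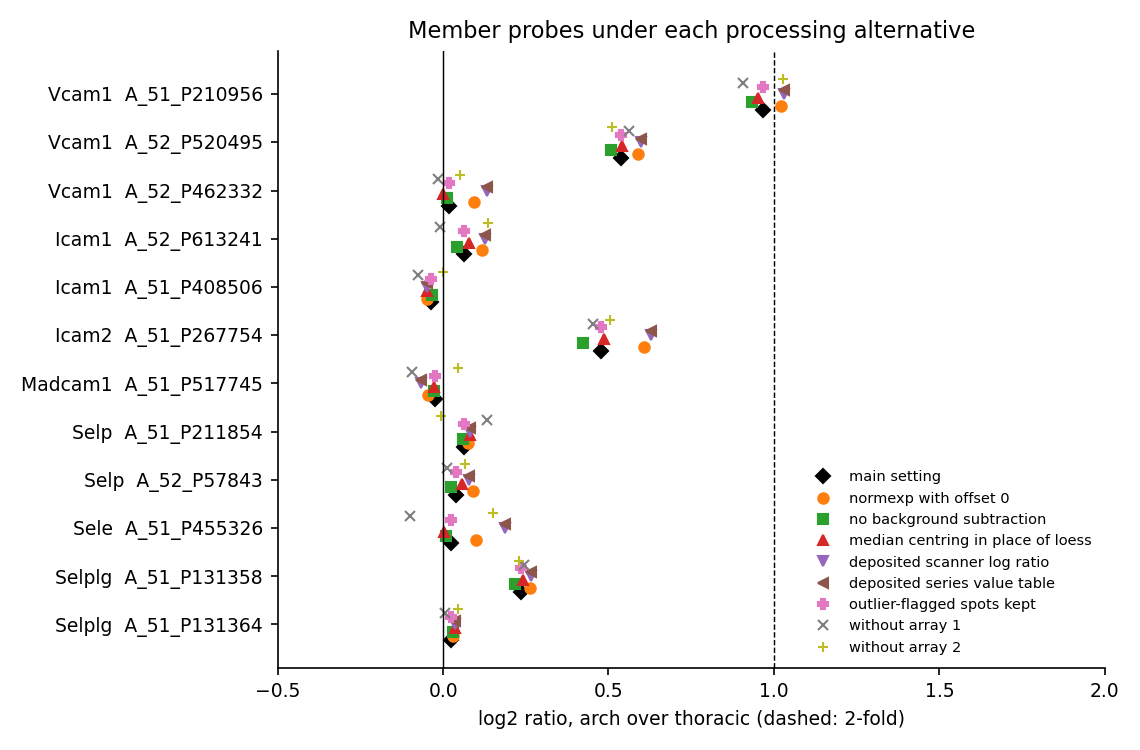
Log2 ratio of arch over thoracic (x axis) of each of the 12 probes (rows) in the setting used throughout and under 8 other ways of handling the same arrays (symbols); the dashed line marks 2-fold. The first Vcam1 probe runs from 0.91 to 1.03 and crosses the line, the second from 0.51 to 0.60, and Icam2 from 0.42 to 0.63.

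Some members share their place in the genome. In the RefSeq annotation of assembly GRCm38.p6, Sele and Selp both lie on chromosome 1, and Icam1, Icam4 and Icam5 follow each other on chromosome 9. Icam4, a ligand found on red cells, stood at a log2 ratio of -0.02 ± 0.07 and Icam5, the telencephalin of neurons, at -0.24 ± 0.03. Like Icam1, neither was called.

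The RefSeq promoter table of GRCm38.p6 holds 4 of the members: Icam1, Madcam1, Sele and Selp. Each promoter spans 250 bases before to 50 after the annotated start. They were searched on both strands for the NF-kappaB consensus GGGRNWYYCC, the TATA box TATAAA and the AP-1 motif TGANTCA. R stands for A or G, W for A or T, Y for C or T and N for any base. NF-kappaB is the family of factors through which cytokines induce several of these genes. The promoters of Icam1 (chr9:21015690-21015989, plus strand) and Madcam1 (chr10:79664309-79664608, plus strand) are shown, as members with a measured signal whose difference lay within the spread between arrays, with motif matches in capitals:

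Icam1: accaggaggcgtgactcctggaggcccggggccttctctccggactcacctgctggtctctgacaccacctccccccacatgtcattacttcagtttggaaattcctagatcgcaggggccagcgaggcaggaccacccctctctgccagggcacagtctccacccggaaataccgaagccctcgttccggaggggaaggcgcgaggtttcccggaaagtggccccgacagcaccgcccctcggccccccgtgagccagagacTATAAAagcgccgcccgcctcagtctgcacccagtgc

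Madcam1: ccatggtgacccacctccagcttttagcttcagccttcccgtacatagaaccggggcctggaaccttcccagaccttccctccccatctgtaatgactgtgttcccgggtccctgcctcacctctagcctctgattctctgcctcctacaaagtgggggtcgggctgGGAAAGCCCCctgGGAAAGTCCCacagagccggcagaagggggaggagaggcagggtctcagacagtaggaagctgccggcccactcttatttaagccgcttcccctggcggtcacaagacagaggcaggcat

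The capitals mark a TATAAA starting at base 14 after the start in Icam1, and in Madcam1 a pair of NF-kappaB matches on the minus strand that begin at -83 and -70. The NF-kappaB consensus was found in 1 of the 4 member promoters and in 4.51% of all 32851 promoters of this length. Only exact matches were counted, so a promoter without a match is not shown to lack a site that differs from the consensus. TGANTCA was found in Sele (from -73) and Selp (from -139), against 7.81% of all promoters. TATAAA was found in Icam1 and Sele (from -49), against 13.6%. The motifs do not overlap each other. A match describes these letters and no binding was measured.

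The rest of the adhesion system was followed in 8 lists with 95 genes, of which 91 could be compared and Itgad, Glycam1, B3gnt3 and Ccl21a were not well above background. By the 2-fold rule 3 of the 91 were higher in the arch and 0 in the thoracic pool, where 0.473% and 0.145% of all genes were. By the 1.5-fold rule the counts were 7 and 1, where 1.2% and 0.386% of all genes were called. The median ratio of the 91 was 0.08, and 59 of them lay above 0, where 47.3% of all genes did. These shares of all genes are the reference for the counts of every list below. With shares so small, 0 calls in a short list is no departure from them.

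Integrins are the receptors of leukocytes for the integrin ligands above. Of 8 leukocyte integrin chains compared, 0 were called and 3 lay above 0, with a median log2 ratio of -0.10. Itga4, the alpha4 chain that pairs with beta1 to bind VCAM-1, stood at 0.30 ± 0.08 with a further probe at 0.03, and Itgb1, that beta1 chain, at -0.22 ± 0.05 with further probes from -0.20 to 0.04. Itgb2, the beta2 chain shared by LFA-1 and Mac-1, was the highest at 0.43 ± 0.10, while their alpha chains Itgal (-0.09 ± 0.04) and Itgam (0.04 ± 0.11) lay near 0. Itgb7, the partner of alpha4 that binds MAdCAM-1, stood at -0.22 ± 0.08. The probes of Itgax, an alpha chain of myeloid cells, disagreed: the brightest gave -0.17 ± 0.09 and a further one 1.25.

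Among junctional and other adhesion molecules, 0 of 13 were called by the 2-fold rule and 7 lay above 0, with a median of 0.06. Cdh5, the cadherin of endothelial junctions, stood at 0.56 ± 0.08 (a further probe at -0.02) and F11r, the junctional molecule JAM-A, at 0.52 ± 0.04. Mcam, a melanoma-associated adhesion molecule also made by smooth muscle, ran the other way at -0.69 ± 0.06 and was the only one of the 91 genes called for the thoracic pool at 1.5-fold. Its further probe stood at -0.24. Jam3 also lay below 0, at -0.42 ± 0.04.

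In selectin ligand synthesis, Gcnt1, which builds the branched O-glycan on which selectin ligands are assembled, was called higher in the arch at 2.15-fold (log2 ratio 1.10 ± 0.02). Its further probe stood at 0.17. The other 11 of the 12 genes compared were not called, and the list's median was 0.07, with 11 of 12 above 0. Chst2, a sulfotransferase of selectin ligands, stood at 0.44 ± 0.06 (a further probe at 0.31). St3gal4, a sialyltransferase, stood at 0.17 ± 0.06 (a further probe at -0.02). B4galt1, a galactosyltransferase, stood at 0.10 ± 0.04 (further probes at -0.06 and 0.08). Fut7, the fucosyltransferase that completes the ligand in leukocytes, stood at -0.01 ± 0.002.

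In the list of sialomucin and proteoglycan carriers of selectin ligands, 0 of 6 genes were called by the 2-fold rule, 4 lay above 0 and the median was 0.05. Emcn, an endothelial sialomucin, stood at 0.78 ± 0.03. Cd44, a hyaluronan receptor that also carries selectin ligands, stood at 0.18 ± 0.09 (further probes at -0.02 and 0.08). Spn stood at 0.10 ± 0.03 (a further probe at -0.08). Cd24a, a mucin-like P-selectin ligand, stood at -0.35 ± 0.05.

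The list of cytoskeletal linkers and cleavage was the one with most calls. Of its 9 genes 2 were called higher in the arch, where 0.473% of all genes were. All 9 lay above 0, where 47.3% of all genes did, and the median was 0.24. The 2 genes called were Adam8, a metalloprotease of leukocytes, at 2.62-fold (1.39 ± 0.01) and Ezr, the membrane linker ezrin, at 2.31-fold (1.21 ± 0.07). Timp3, an inhibitor of the sheddase ADAM17, stood at 0.99 ± 0.004. Adam17 itself, which cuts VCAM-1 from the surface, stood at 0.24 ± 0.08, and Adam10 at 0.31 ± 0.07. Msn, moesin, which docks with both VCAM-1 and ICAM-1, stood at 0.08 ± 0.13.

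Of 20 cytokines, receptors and factors that can induce the members, 0 were called, 11 lay above 0 and the median was 0.08. Il1b stood at 0.40 ± 0.17 and Nfkb1, a subunit of NF-kappaB, at 0.38 ± 0.05 with further probes at 0.08 and 0.10. Il1r1, the receptor of interleukin 1, ran the other way at -0.52 ± 0.002. Tnfrsf1a, the main receptor of tumour necrosis factor, stood at 0.25 ± 0.01.

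Of 14 chemokines and receptors that arrest rolling cells, 0 were called by the 2-fold rule and the median was 0.07. Cxcl9 stood at 0.74 ± 0.08 and Cx3cl1, a membrane-bound chemokine that itself holds leukocytes, at 0.58 ± 0.02. Cxcl10 stood at 0.38 ± 0.13, and Ccl2, the chemokine of monocytes, lay on the thoracic side at -0.35 ± 0.03. Of 9 partners of P-selectin in platelets and Weibel-Palade bodies, 0 were called, 5 lay above 0 and the median was 0.19. Vwf, von Willebrand factor, stood at 0.87 ± 0.04 (a further probe at 0.68), Gp9 at 0.56 ± 0.02, Cd63 at 0.28 ± 0.04 and Pf4, a platelet chemokine, at -0.44 ± 0.03.

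**Figure D5:**
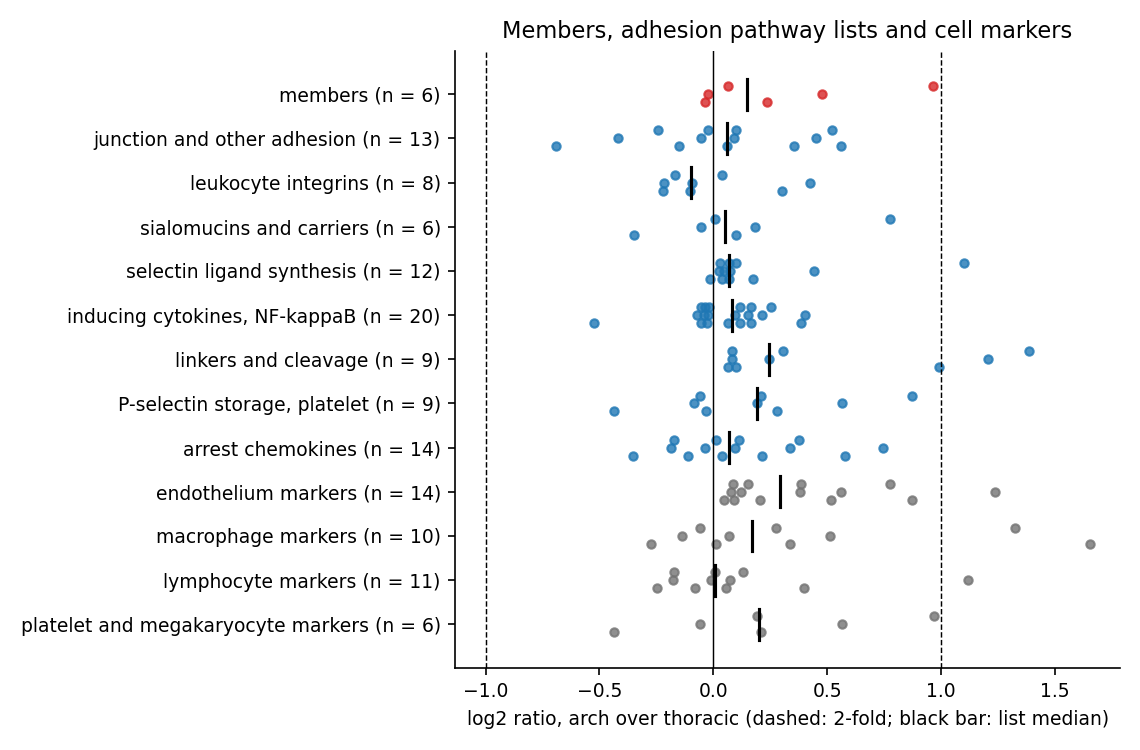
Log2 ratio of arch over thoracic (x axis) of each gene compared, by list (rows): the 6 members in red, the 8 adhesion lists in blue and 4 marker lists in grey; black bars are list medians and dashed lines mark 2-fold. In the blue rows the genes beyond 2-fold are Gcnt1, Adam8 and Ezr, and all 14 endothelial markers lie to the right of 0.

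Some markers of the cell types that carry these molecules differed between the pools, and their part in the member values was not tested. The marker lists share genes with the adhesion lists above, such as Cdh5, Pecam1, Vwf, Emcn and Pf4. For these genes the values are the same ones and not a separate observation. All 14 endothelial markers lay above 0 on their brightest probes, with a median of 0.30, where 47.3% of all genes lay above 0. By the 2-fold rule 1 was called: Kdr, a receptor of vascular endothelial growth factor, at 1.24 ± 0.04. Further probes stood at -0.02 for Cdh5 and from -0.15 to 0.33 for Flt1, and at 0.68 for Vwf and 0.11 for Erg. The signals of the list summed to 4419 (arch) and 3325 (thoracic) in Cy3 and to 5128 and 3657 in Cy5. The list was spread out. Pecam1 (0.09 ± 0.01), Cldn5 (0.08 ± 0.03) and Tie1 (0.05 ± 0.09) lay close to 0, while Kdr, Vwf (0.87 ± 0.04) and Emcn (0.78 ± 0.03) were the highest. No gene of the list was below background. On its brightest probe Vcam1, at 0.97, lay above every one of the 14 except Kdr. The second Vcam1 probe, at 0.54, also lay below Vwf, Emcn and Cdh5 (0.56 ± 0.08). Icam2, at 0.48, lay between Tek (0.52 ± 0.09) and Flt1 (0.39 ± 0.06).

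Of 10 macrophage markers 7 lay above 0, with a median of 0.17, and 2 were called higher in the arch: Lgals3, galectin-3, at 1.65 ± 0.09 and Mpeg1, a perforin-like protein, at 1.33 ± 0.05. A further probe of Mpeg1 stood at 0.36. Adgre1, the F4/80 antigen, stood at -0.06 ± 0.01 and Cd68 at 0.51 ± 0.07. The list summed to 79459 (arch) and 68692 (thoracic) in Cy3 and to 83894 and 79160 in Cy5. The probe of Lyz2 was saturated and is part of these sums, so they hold a clipped signal. Without Lyz2 the median of the other 9 was 0.07. Of 11 lymphocyte markers 6 lay above 0, the median was 0.01 and 1, Il7r, was called higher in the arch (1.12 ± 0.15). Its further probe stood at 0.16. The signals of the lymphocyte list summed to 2826 (arch) and 2757 (thoracic) in Cy3 and to 3388 and 2924 in Cy5. The 6 platelet markers, of which 0 were called by the 2-fold rule and 4 lay above 0, had a median of 0.20 but summed lower in the arch, to 8424 against 11298 in Cy3 and 11110 against 15161 in Cy5. A sum weighs bright probes most, and only Pf4 (-0.44 ± 0.03) and Gp1bb (-0.06 ± 0.01) lay below 0. Selp and Selplg, carried by platelets and leukocytes, stood at 0.06 and 0.24 beside these lists.

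The 8 smooth muscle markers held 0 calls and had a median of 0.13. The probes of Tagln and Acta2 were saturated and differed between arrays (0.25 ± 0.77 each), and without them the median was 0.06. All 6 mesothelial markers were called higher in the arch, with a median of 1.43, as were 5 of 7 heart muscle markers (median 1.41) and 1 of 8 markers of adventitial fibroblasts (median 0.35, or 0.42 without the saturated probes of Dcn and Col3a1). Over all genes 0.473% were called higher in the arch. No marker of these lists was below background in either pool.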

How the data were processed

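Both pools were hybridised to 2 Agilent two-colour arrays with exchanged dyes. The authors deposited Feature Extraction output holding spot intensity values, log10 ratios of red over green and their p-values, made with version 8.1.1.1 per the file headers (9.1.1.1 per the submitters' processing notes). A deposited series table held the same log10 ratios, already turned to arch over thoracic. Build: not given in the sources used here.

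Here intensities were background-corrected (limma 3.58.1 under R 4.3.3, normexp, offset 50) and loess-normalized within each array, with control spots at weight 0 and outlier-flagged spots left out. Ratios were turned to arch over thoracic, averaged over spots and then over arrays. No test was run, since both arrays hold the same pooled RNA, and the deposited p-values were not used as evidence. A probe was compared if well above background in at least 1 pool on both arrays, and a gene was represented by its brightest such probe. Probes were named through RefSeq accessions (21445 probes), current symbols (5431) or synonyms (4636), and otherwise kept the file's name (9662). The steps were tested on simulated data. Alternatives covered the offset, background, normalization, deposited ratios, dim and flagged spots, probe choice, size rule and each array alone. The members and gene lists were chosen with earlier results of these data known. Some genes of the surroundings and lists are not reported here.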

Additional observations from a re-analysis of the deposited data

How the results depend on the processing

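Of 11 alternatives, 9 gave new values for members (8 for each probe, and the median over probes for each gene), of which 85 moved by no more than 1 SD and 17 moved further. Part of the 85 could not have moved further: a single array always lies within 1 SD of the mean of both. Keeping flagged spots changed no member value, and a gene with 1 usable probe has no other median. The deposited series table repeats the scanner ratios, so the tally does not measure robustness. The main counts were 108 genes higher in the arch, 33 higher in the thoracic pool, 0 members and 3 genes of the adhesion lists. With a normexp offset of 0 the counts were 196, 66, 1 and 5. The deposited scanner ratios and the deposited series table each gave 232, 77, 1 and 5. A mean of 1.5-fold gave 274, 88, 1 and 8. Lower counts came without background subtraction (81, 27, 0 and 3) and with the median over probes (85, 28, 0 and 2). Median centring gave 102, 34, 0 and 3, and keeping dim probes or flagged spots left every count as it was. With 1 array left out, the counts ran from 103 to 114 in the arch and stood at 33 in the thoracic pool, with 0 to 1 members and 3 genes of the lists. The member called in each case was Vcam1, which array 1 alone put past 2-fold and array 2 alone did not. The smaller offset and the deposited ratios also called Cxcl9 and Vwf, and the median over probes left Gcnt1 uncalled. Madcam1, Sele, the dimmer Icam1 probe, the brighter Selp probe and the third Vcam1 probe had opposite signs on single arrays. Leaving out saturated probes, an alternative chosen after seeing the data, lowered the medians of the macrophage markers to 0.07 and of the smooth muscle markers to 0.06 and raised that of the fibroblast markers to 0.42. No paired analysis was possible because both arrays hold the same pair of pools. Signals near background limit Sele and the third Vcam1 probe, and 1 pool per segment leaves the spread between mice unknown.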
